A study of Mus musculus with 16 samples.

Results

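The Bcl2 family of cell death regulators was followed through sorted luminal cells of the mouse mammary gland, over every probe set annotated to exactly 1 symbol that is Bcl2, Bcl2l1, Mcl1, Bax, Bak1, Bad, Bid, Bcl2l11, Pmaip1 or Bbc3. The rule found 23 probe sets of 28898 with a single symbol, covering 9 of the 10 genes. Bax had no single-symbol probe set in the annotation used here, so its level is not reported. Of the 23, 22 passed the filter on dim probe sets, a mean of at least 3.67 log2 units over the 16 arrays, and the Bid probe set 1447873_PM_x_at did not.

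The study asked how p38a (Mapk14), a kinase that responds to stress, acts in luminal cells with and without an oncogene. Its 16 arrays fall into 4 groups of 4. Mice of 6 weeks gave cells with MMTV-PyMT, either with the floxed p38a allele and MMTV-Cre (called p38a-lox PyMT) or with MMTV-Cre alone beside the oncogene (called PyMT). Mice of 9 weeks gave cells without PyMT, either with the floxed allele and MMTV-Cre (called p38a-lox) or with MMTV-Cre only (called MMTV-Cre). All 4 groups therefore carry MMTV-Cre, in which the mouse mammary tumour virus promoter drives Cre recombinase in mammary epithelium, and the same promoter drives the polyoma middle T antigen in PyMT mice. Since the PyMT groups are also the younger ones, oncogene and age cannot be told apart. The labels do not say that each array is a separate animal or how far the allele was deleted, so a p reflects only the variation among these arrays, which may be technical. Each array gave 1 log2 signal per probe set, and the level of one probe set is not set against that of another, since probes differ in binding.

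In the mitochondrial pathway of apoptosis, Bax and Bak1 form pores in the outer mitochondrial membrane and let cytochrome c out, which starts the caspase cascade. Bcl2, Bcl2l1 (Bcl-xL) and Mcl1 bind these effectors and their activators and hold the pore closed. The BH3-only proteins Bad, Bid, Bcl2l11 (Bim), Pmaip1 (Noxa) and Bbc3 (Puma) report stress, loss of survival signals or DNA damage by binding the protective members or by activating the effectors. In the mammary gland the family is known for clearing cells from the lumen and for removing secretory epithelium after weaning.

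The start regions of 3 members are shown because Bcl2l11 carried the single called difference, Bbc3 shared a motif with it and Bcl2 had the largest p38a-lox difference without PyMT. RefSeq promoter windows on GRCm38.p6, from 250 bases before to 50 bases after a gene's start, were found for 9 members in 15 windows. These members include Bax but not Pmaip1, which had no window in the sources used here. Capitals mark the FOXO motif GTAAACA, read on both strands, so that it appears as TGTTTAC where it lies on the other strand. The windows are chr1:106714241-106714540 on the minus strand for Bcl2, chr2:128125788-128126087 on the plus strand for Bcl2l11 and chr7:16310011-16310310 on the plus strand for Bbc3.
Bcl2: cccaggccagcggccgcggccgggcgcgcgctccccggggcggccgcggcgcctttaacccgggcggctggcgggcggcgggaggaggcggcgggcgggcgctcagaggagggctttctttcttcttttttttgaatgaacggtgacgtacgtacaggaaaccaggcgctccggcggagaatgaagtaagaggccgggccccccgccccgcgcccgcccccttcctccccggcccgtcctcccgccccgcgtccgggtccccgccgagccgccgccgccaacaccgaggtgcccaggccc
Bcl2l11: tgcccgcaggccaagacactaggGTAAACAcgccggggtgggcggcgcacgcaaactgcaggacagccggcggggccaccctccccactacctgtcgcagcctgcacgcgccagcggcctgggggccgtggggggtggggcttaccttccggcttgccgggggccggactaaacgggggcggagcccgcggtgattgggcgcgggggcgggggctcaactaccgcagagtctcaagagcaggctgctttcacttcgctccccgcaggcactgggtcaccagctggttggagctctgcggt
Bbc3: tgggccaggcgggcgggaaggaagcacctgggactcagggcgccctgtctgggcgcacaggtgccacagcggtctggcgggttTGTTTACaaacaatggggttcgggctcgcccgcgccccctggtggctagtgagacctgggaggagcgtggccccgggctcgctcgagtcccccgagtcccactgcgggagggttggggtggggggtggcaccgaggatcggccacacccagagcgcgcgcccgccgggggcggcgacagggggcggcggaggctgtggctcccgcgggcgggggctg
The motif began at base 24 of the Bcl2l11 window shown, 227 bases before its start. In the Bbc3 window shown it began at base 84, 167 bases before the start. The further window of Bcl2l11 (from chr2:128127325) and those of Bbc3 (from chr7:16309333 and chr7:16310181) had 0 matches. The motif was in 2 of the 15 member windows, against 3.65% of all 32851 windows. The motif was chosen after the letters of these windows had been seen, so its presence is a description only. The AP-1 motif TGANTCA (7.81% of all windows), the EGR motif GCGTGGGCG (0.612%) and the CRE motif TGACGTCA (1.79%) were in 0 member windows each on either strand. GC content was 76.0% in the Bcl2 window, 71.0% in the Bcl2l11 window and 74.7% in the Bbc3 window.

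The luminal keratins Krt8 and Krt18 averaged at least 11.8 in every group. Hormone-sensing luminal markers, averaged over 5 of 7 listed genes, spanned 5.92 to 8.47 in MMTV-Cre arrays and 6.12 to 6.47 in p38a-lox arrays. They spanned 6.26 to 6.70 in PyMT arrays and 6.175 to 7.66 in p38a-lox PyMT arrays. The share of luminal subtypes was not tested. The leukocyte gene Ptprc lay below the filter, but other leukocyte genes passed it. Averaged over 5 of 9 listed genes, these spanned 5.29 to 5.54 in p38a-lox PyMT arrays and 5.31 to 5.43 in PyMT arrays. They spanned 4.53 to 5.28 in p38a-lox arrays and 4.76 to 5.35 in MMTV-Cre arrays. Among them Cd68 averaged 9.05, 8.07, 6.31 and 7.30 in these groups, in the order given. In p38a-lox PyMT against p38a-lox, Cd68 differed by 2.74, while the median of the 5 tested leukocyte probe sets was 0.06. Cd68 alone therefore weighs heavily in these averages. The share of leukocytes was not tested. Basal and myoepithelial markers, averaged over 7 of 7 listed genes, spanned 7.33 to 8.10 in p38a-lox PyMT arrays, 7.27 to 8.05 in PyMT arrays, 5.48 to 7.25 in p38a-lox arrays and 5.88 to 7.64 in MMTV-Cre arrays. Mapk14 itself had a lower mean in arrays labelled p38a-lox for 5 of its 6 probe sets with PyMT and for 0 of 6 without. The sources used here do not place its probes relative to the floxed exons, so Mapk14 does not check the labels, and p38a-lox below means arrays labelled so. Sample titles carry numbers of unstated meaning, low in 9 arrays (the lower range) and high in 7 (the higher range). Member differences are set out by range for some probe sets only, and others also differ between the ranges. For Mapk14 1416703_PM_at, p38a-lox minus MMTV-Cre was -0.69 in the lower range and 2.24 in the higher one.

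Across the family, 1 difference passed the test: a Bcl2l11 probe set was lower in PyMT than in MMTV-Cre cells. A probe set was called where limma's moderated test, with Benjamini-Hochberg adjustment across 22996 probe sets, gave an adjusted p below 0.05. In PyMT against MMTV-Cre, 1 of 22 member probe sets was called, against 1.06% of all probe sets, and 3 had an unadjusted p under 0.05. Of all probe sets, with the same rule, 0.304% were called lower and 0.752% higher. In p38a-lox PyMT against p38a-lox, 0 of 22 were called by limma, against 0.613% of all, and 2 had an unadjusted p under 0.05. In p38a-lox against MMTV-Cre limma called 0 of 22, against 0% of all, and 2 had an unadjusted p under 0.05. In p38a-lox PyMT against PyMT limma called 0 of 22, against 0% of all, and 0 had an unadjusted p under 0.05. The interaction, which is the p38a-lox difference with PyMT minus the one without, gave 0 calls of 22 by limma, against 0% of all, and 1 unadjusted p under 0.05. Unadjusted p values under 0.05 made up 13.7%, 12.4%, 4.71%, 3.69% and 2.87% of all probe sets in these 5 comparisons, in the order given, so the members' counts lay near the background. The median member difference was 0.10 in PyMT against MMTV-Cre, where that of all probe sets was 0.03, and -0.01 in p38a-lox PyMT against p38a-lox, where that of all was -0.02. With the floxed allele as the contrast the member medians were -0.08 with PyMT and 0.04 without it. Lower amounts of RNA per cell and a smaller share of cells that express a gene cannot be told apart in these bulk samples.

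**Figure D1:**
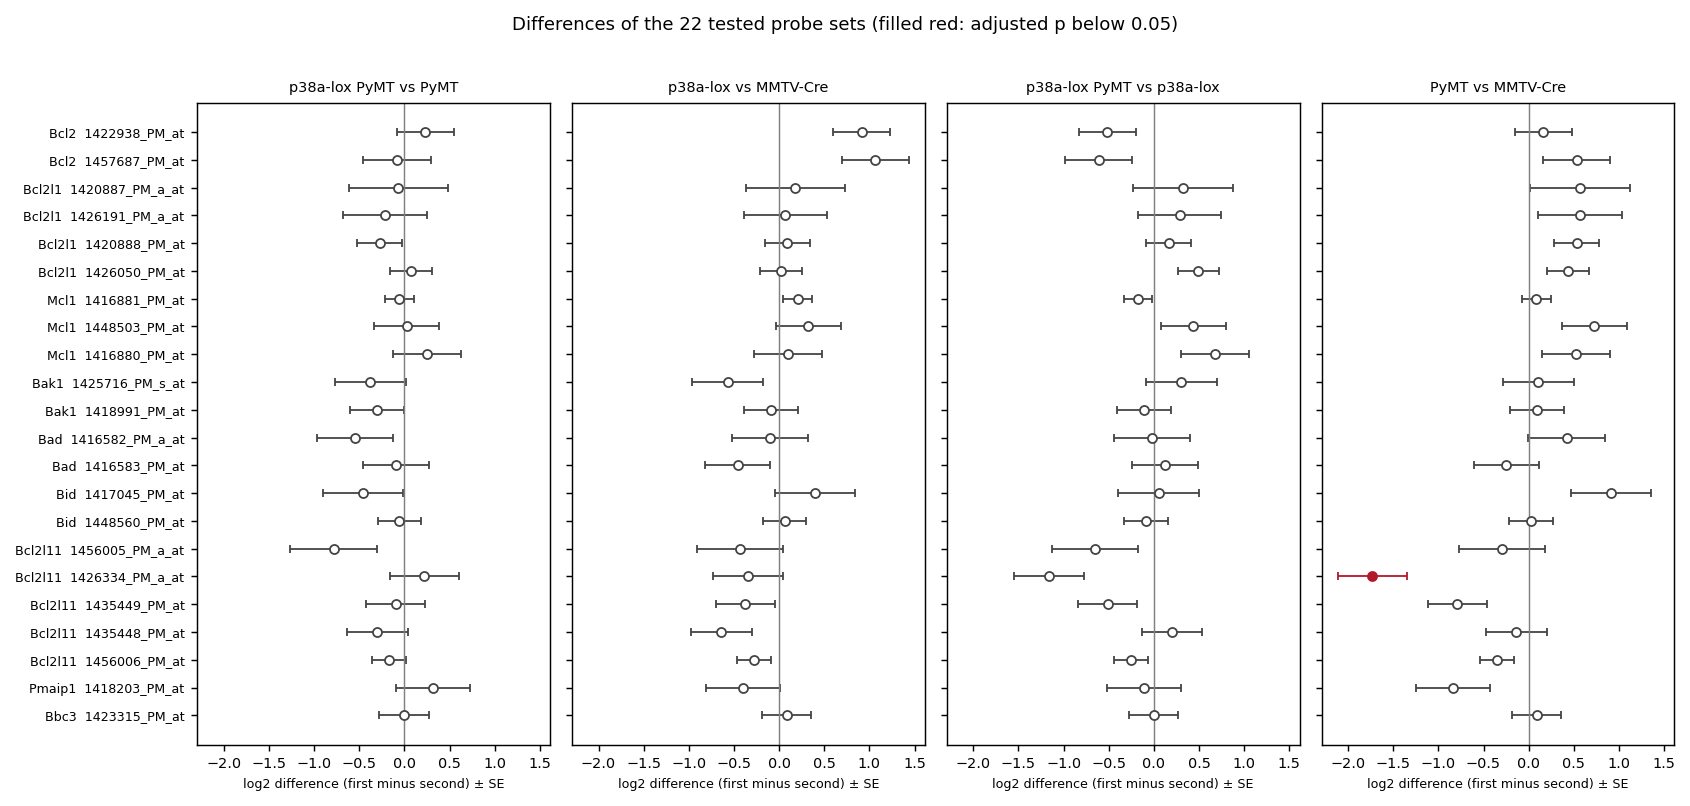
Log2 differences (first group minus second, points) with their standard errors (bars) for the 22 tested member probe sets in 4 comparisons. The filled red point is Bcl2l11 1426334_PM_a_at in PyMT against MMTV-Cre at -1.73, the single called difference.

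Bcl2l11 encodes Bim, a BH3-only protein that binds every protective member and is held low by growth factor signalling. Its probe set 1426334_PM_a_at had log2 signals of 5.78, 5.56, 5.72 and 5.10 in PyMT arrays, against 7.81, 5.98, 8.11 and 7.18 in MMTV-Cre arrays. Every PyMT array lay below every MMTV-Cre array, with the narrowest gap at MMTV-Cre replicate 2, and 7.06% of all probe sets also had no overlap in this comparison. Bcl2l11 1426334_PM_a_at fell by 1.73 ± 0.386 (SE, n = 4 and 4 arrays, limma adjusted p = 0.0459). The difference was -1.41 within the lower range of title numbers and -1.93 within the higher range, where PyMT has 1 array.

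With the floxed allele, Bcl2l11 1426334_PM_a_at read 5.93, 6.35, 5.64 and 5.13 in p38a-lox PyMT arrays, against 6.42, 6.84, 7.34 and 7.10 in p38a-lox arrays. These groups did not overlap either, but the difference of -1.16 ± 0.386 had a limma adjusted p of 0.201 and was not called. By title range the difference was -0.49 (lower) and -1.84 (higher). In p38a-lox PyMT against p38a-lox, 3 of 22 member probe sets had no overlap, against 8.27% of all probe sets. They were Bcl2l11 1426334_PM_a_at, Bcl2l11 1435449_PM_at and Bcl2 1422938_PM_at, all lower in p38a-lox PyMT. With the floxed allele as the contrast, 0 of 22 had no overlap both with PyMT (2.64% of all probe sets) and without it (2.16%). Whether the PyMT difference depends on the floxed allele is the interaction, which was 0.57 ± 0.546 for Bcl2l11 1426334_PM_a_at (limma adjusted p = 0.996).

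The call for Bcl2l11 depended on the setting. It was lost in 11 of 16 fits that left out 1 array, with differences from -2.16 without MMTV-Cre replicate 2 (adjusted p = 0.0045) to -1.45 without MMTV-Cre replicate 3 (adjusted p = 0.132). It was also lost without a filter on dim probe sets (adjusted p = 0.0616) and when only the arrays compared were fitted (adjusted p = 0.159). Of 13 tested probe sets of 7 basal and myoepithelial markers, 1 was called in the same comparison: Trp63 1452027_PM_a_at, a basal transcription factor, rose by 2.20 ± 0.391 in PyMT against MMTV-Cre (limma adjusted p = 0.0167). Uncalled basal values went both ways, from 2.54 ± 0.668 for Krt14 1423935_PM_x_at to -0.39 ± 0.534 for Myh11 1448962_PM_at. Of 7 tested probe sets of 5 luminal progenitor markers, 2 were called lower, both of Aldh1a3, which fell by 1.73 ± 0.342 at 1417642_PM_at (limma adjusted p = 0.0283). Of all probe sets, 0.752% were called higher and 0.304% lower in PyMT against MMTV-Cre. Of 8 tested probe sets of 5 hormone-sensing luminal markers, 0 were called in PyMT against MMTV-Cre. Their median difference was -0.80, against 0.03 for all probe sets. The part of all these markers in the Bcl2l11 difference was not tested.

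**Figure D2:**
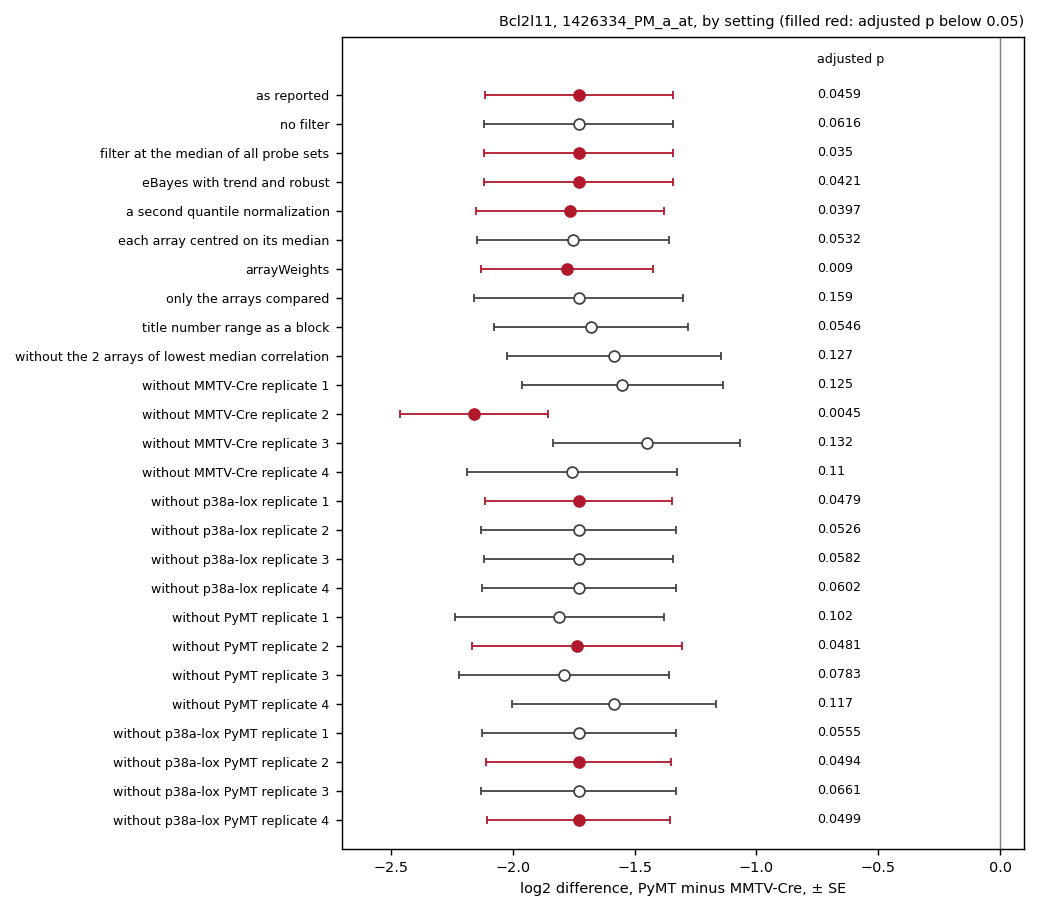
Log2 difference of Bcl2l11 1426334_PM_a_at, PyMT minus MMTV-Cre (points, with SE bars), as reported and under each other setting that keeps the probe set, with the limma adjusted p printed at the right. The values lie between -2.16 and -1.45, and the adjusted p crosses 0.05 in both directions.

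The other 4 probe sets of Bcl2l11 had smaller differences in PyMT against MMTV-Cre, of -0.30 for 1456005_PM_a_at, -0.79 for 1435449_PM_at, -0.14 for 1435448_PM_at and -0.36 for 1456006_PM_at, and none was called. Bcl2l11 1435449_PM_at came nearest, with 5.19, 4.71, 6.06 and 4.61 in PyMT arrays, against 5.89, 5.63, 6.84 and 5.38 in MMTV-Cre arrays. Its difference was -0.79 ± 0.326 (limma adjusted p = 0.285), and the groups overlapped through PyMT replicate 3 alone. By title range the difference was -0.92 (lower) and -0.05 (higher). Bcl2l11 1456005_PM_a_at read 7.26, 6.84, 8.37 and 6.99 in PyMT arrays, against 7.12, 7.50, 8.97 and 7.06 in MMTV-Cre arrays, and replicate 3 stood highest in each. Averaged over its 5 probe sets, Bcl2l11 differed by -0.66 ± 0.271 (limma adjusted p = 0.287).

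Within groups the called probe set followed the others unevenly. As Pearson correlations of deviations from group means over the 16 arrays, Bcl2l11 1426334_PM_a_at had r = 0.10 with 1456005_PM_a_at, 0.46 with 1435449_PM_at, 0.00 with 1435448_PM_at and 0.48 with 1456006_PM_at, while the others had r from 0.51 to 0.89 among themselves. All points share the arrays and their normalization, so these values are descriptions. The sources used here do not say which Bcl2l11 transcripts each probe set reads. With the floxed allele as the contrast, 1435448_PM_at had the largest Bcl2l11 difference without PyMT, -0.64 ± 0.336 in p38a-lox against MMTV-Cre (limma adjusted p = 0.999). With PyMT it was 1456005_PM_a_at, at -0.78 ± 0.477 in p38a-lox PyMT against PyMT (limma adjusted p = 1).

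**Figure D3:**
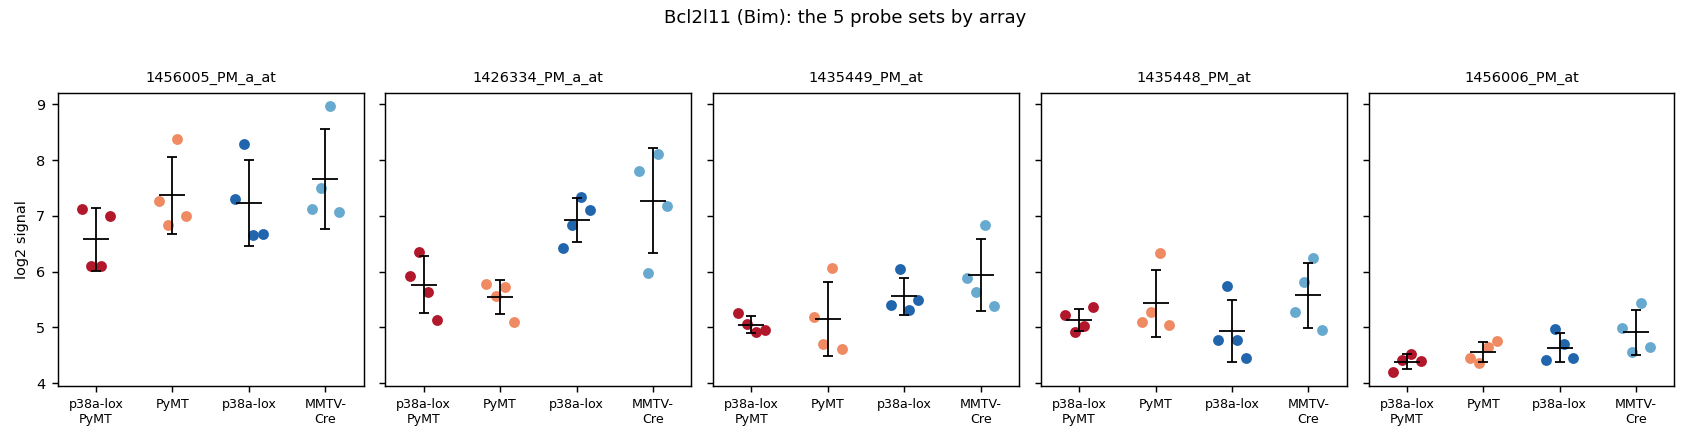
Log2 signal of each array (points) in the 4 groups for the 5 probe sets of Bcl2l11, with group means and SD bars (n = 4). PyMT and MMTV-Cre arrays are apart in 1426334_PM_a_at only, at 5.10 to 5.78 and 5.98 to 8.11.

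Among the other BH3-only genes no difference was called. Pmaip1 1418203_PM_at, for the p53-induced protein Noxa that binds Mcl1, read 4.60, 5.52, 4.67 and 4.18 in PyMT arrays, against 5.65, 5.75, 4.76 and 6.16 in MMTV-Cre arrays. Its difference was -0.84 ± 0.409 (limma adjusted p = 0.392), with -0.93 and -0.79 in the lower and higher title ranges, and MMTV-Cre replicate 3 lay among the PyMT arrays. Pmaip1 read 5.60, 4.61, 4.72 and 5.32 in p38a-lox PyMT arrays, against 6.26, 4.26, 4.98 and 5.21 in p38a-lox arrays, which overlapped.

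Bid 1417045_PM_at, for the protein that caspase-8 cleaves to link death receptors with mitochondria, read 8.12, 6.97, 6.84 and 6.52 in PyMT arrays, against 6.68, 6.64, 5.33 and 6.16 in MMTV-Cre arrays. The difference of 0.91 ± 0.443 was not called (limma adjusted p = 0.388), and PyMT replicate 4 lay within the MMTV-Cre values. Without PyMT replicate 1 the difference was 0.57. With the floxed allele the Bid means were alike to within their SDs, at 6.65 ± 0.595 in p38a-lox PyMT arrays and 6.60 ± 0.788 in p38a-lox arrays (n = 4 each). A further Bid probe set, 1448560_PM_at, had group means from 6.40 to 6.49, and the dim 1447873_PM_x_at read 2.78 to 4.21 over the 16 arrays.

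Bad encodes a BH3-only protein that survival kinases phosphorylate and so keep away from Bcl2l1. Bad 1416582_PM_a_at read 8.48, 8.93, 9.49 and 9.46 in p38a-lox PyMT arrays, against 9.48, 8.73, 9.92 and 10.42 in PyMT arrays, a difference of -0.55 ± 0.422 (limma adjusted p = 1). Bad 1416583_PM_at read 5.37, 6.16, 6.77 and 7.35 in p38a-lox arrays, against 7.09, 7.51, 6.33 and 6.57 in MMTV-Cre arrays, a difference of -0.46 ± 0.364 (limma adjusted p = 0.999). The p38a-lox minus MMTV-Cre difference for 1416583_PM_at was -1.53 in the lower title range and 0.61 in the higher one, opposite in sign. Bbc3 1423315_PM_at, for the p53 target Puma, had almost the same mean in all groups: 7.41 ± 0.347 in p38a-lox PyMT, 7.42 ± 0.489 in PyMT, 7.42 ± 0.185 in p38a-lox and 7.33 ± 0.519 in MMTV-Cre arrays (SD, n = 4 each).

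Of the protective members, Bcl2 had its highest group mean in p38a-lox arrays in both of its probe sets, without a call. Bcl2 1422938_PM_at read 8.29, 8.54, 8.77 and 8.49 in p38a-lox arrays, against 8.52, 7.48, 6.84 and 7.59 in MMTV-Cre arrays. MMTV-Cre replicate 1 lay inside the p38a-lox values and the other MMTV-Cre arrays lay below them. The difference was 0.91 ± 0.313 (unadjusted p = 0.0107, limma adjusted p = 0.913), and by title range it was 0.41 (lower) and 1.41 (higher). Bcl2 1457687_PM_at read 5.17, 4.43, 6.03 and 5.58 in p38a-lox arrays, against 4.73, 3.72, 3.89 and 4.61 in MMTV-Cre arrays. Here the difference was 1.06 ± 0.372 (unadjusted p = 0.012, limma adjusted p = 0.95), and p38a-lox replicate 2 lay among the MMTV-Cre arrays. Unadjusted p values under 0.05 were 2 of 22 for the members and 4.71% for all probe sets, and both of the members' were from Bcl2, whose probe sets had r = 0.72 between their deviations over the 16 arrays and so are not separate evidence.

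With PyMT, Bcl2 1422938_PM_at read 8.21, 7.76, 8.23 and 7.82 in p38a-lox PyMT arrays, against 7.72, 7.15, 8.52 and 7.71 in PyMT arrays, a difference of 0.23 ± 0.313 (limma adjusted p = 1). For 1457687_PM_at the same difference was -0.08 ± 0.372. By title range both turned sign, from 0.46 (lower) to -0.49 (higher) at 1422938_PM_at and from 0.31 to -1.10 at 1457687_PM_at. The interaction for Bcl2 was -0.68 ± 0.442 in 1422938_PM_at and -1.14 ± 0.526 in 1457687_PM_at (unadjusted p = 0.0462), each with a limma adjusted p of 0.996. Bcl2 1422938_PM_at differed by -0.52 ± 0.313 in p38a-lox PyMT against p38a-lox (limma adjusted p = 0.566), and these arrays did not overlap. The comparisons share the p38a-lox arrays, so the high p38a-lox values enter each of them.

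**Figure D4:**
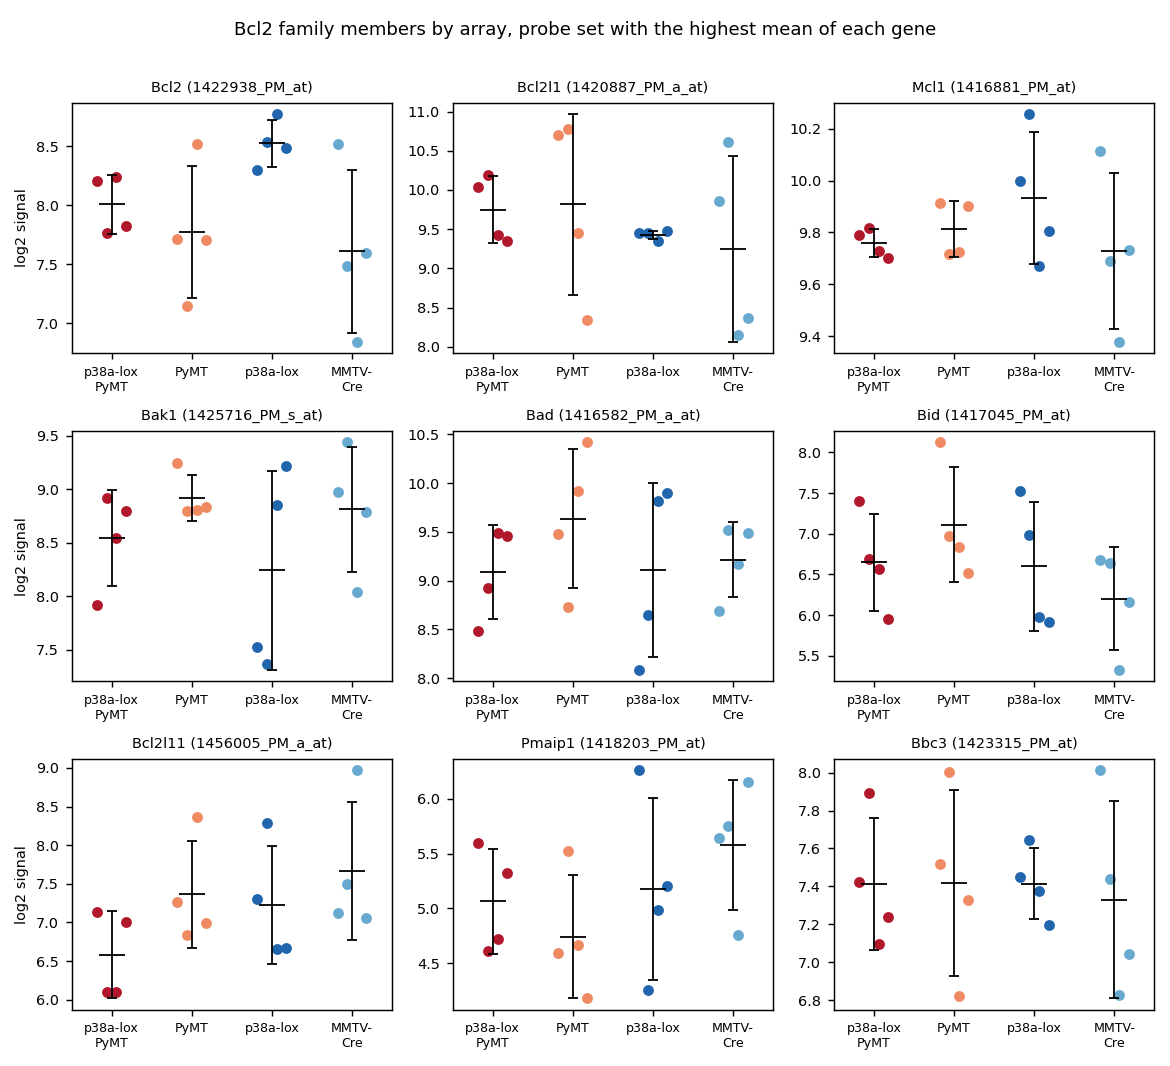
Log2 signal of each array (points) by group for the brightest probe set of the 9 measured members, with group means and SD bars (n = 4). Bcl2 lies at 8.29 to 8.77 in p38a-lox arrays, and the Bcl2l1 values span 0.12 in p38a-lox against 2.46 in MMTV-Cre arrays.

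Bcl2l1, which encodes the protective protein Bcl-xL, had overlapping groups with unequal spreads. Bcl2l1 1420887_PM_a_at read 9.45, 9.44, 9.35 and 9.47 in p38a-lox arrays, against 9.86, 10.61, 8.15 and 8.37 in MMTV-Cre arrays. In PyMT arrays it read 10.69, 10.77, 9.45 and 8.34, and in p38a-lox PyMT arrays 10.04, 10.19, 9.42 and 9.35. The range was therefore 0.12 in p38a-lox and 2.46 in MMTV-Cre arrays, and 0.85 in p38a-lox PyMT and 2.43 in PyMT arrays. Spread was not tested.

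Title numbers moved with the Bcl2l1 1420887_PM_a_at values in the MMTV-Cre and p38a-lox PyMT groups, where both lower-range arrays exceeded both higher-range ones. In the p38a-lox and PyMT groups they did not, and the lowest PyMT array, at 8.34, is of the lower range. The p38a-lox minus MMTV-Cre difference of Bcl2l1 1420887_PM_a_at was -0.79 in the lower and 1.15 in the higher title range, and 0.18 ± 0.551 overall (limma adjusted p = 0.999). Bcl2l1 1426191_PM_a_at followed it (r = 0.97 of deviations over 16 arrays), with -0.79 and 0.93.

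Bcl2l1 1420888_PM_at had 8.70, 8.39, 8.09 and 8.28 in PyMT arrays, against 8.08, 8.56, 7.25 and 7.43 in MMTV-Cre arrays, a difference of 0.53 ± 0.249 (unadjusted p = 0.0492, limma adjusted p = 0.362). The dimmer 1426050_PM_at differed by 0.44 ± 0.23 in the same comparison (limma adjusted p = 0.435) and by 0.49 ± 0.23 in p38a-lox PyMT against p38a-lox (limma adjusted p = 0.401). All 4 Bcl2l1 probe sets had higher means in PyMT than in MMTV-Cre arrays, as had 54% of all probe sets, and none was called. By title range 2 of them turned sign, from -0.30 (lower) to 1.19 (higher) at 1420887_PM_a_at and from -0.11 to 0.96 at 1426191_PM_a_at. The deviations of the 4 had r from 0.27 to 0.97 over the 16 arrays, so they are not separate evidence.

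**Figure D5:**
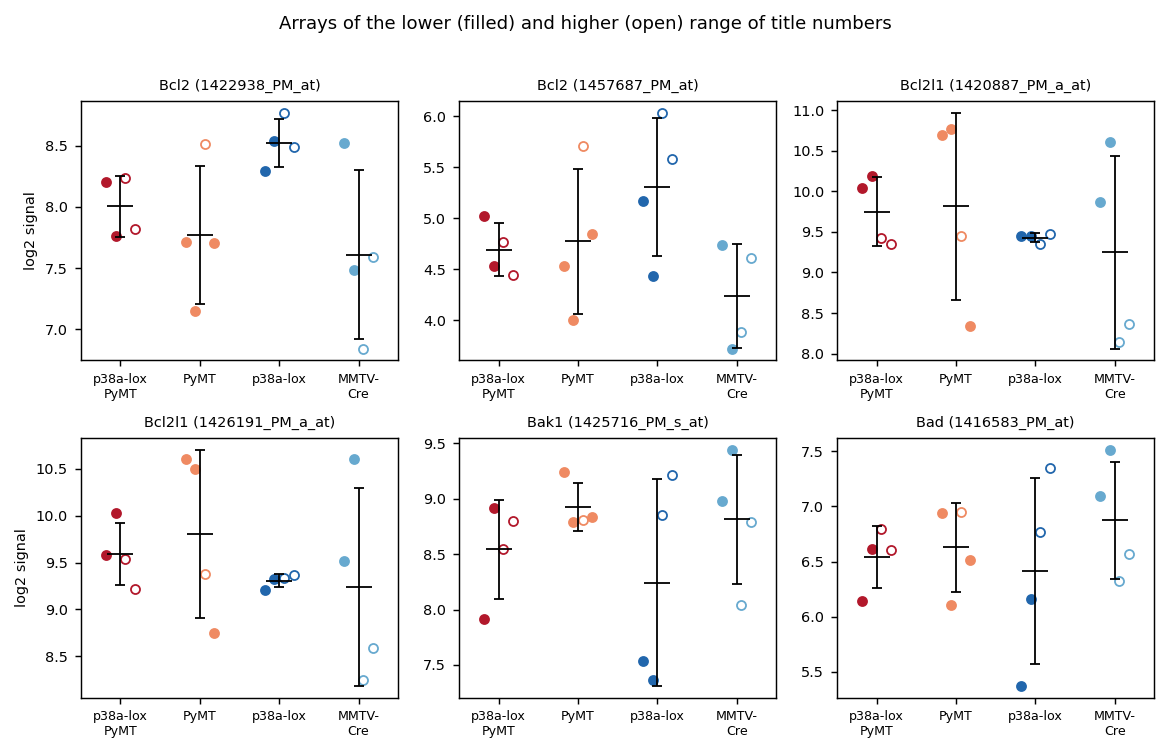
Log2 signal of each array (filled for the lower and open for the higher range of title numbers) with group means and SD bars (n = 4), for probe sets of Bcl2, Bcl2l1, Bak1 and Bad. For Bak1 and Bad the lower-range p38a-lox arrays sit below both MMTV-Cre lower-range arrays, while in the higher range they sit above.

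Mcl1 encodes a short-lived protective protein on which mammary luminal cells are known to depend. Mcl1 1416881_PM_at overlapped in all groups, at 9.70 to 9.82 in p38a-lox PyMT, 9.72 to 9.91 in PyMT, 9.67 to 10.26 in p38a-lox and 9.38 to 10.11 in MMTV-Cre arrays (n = 4 each). Mcl1 1448503_PM_at averaged 9.53 ± 0.373 in PyMT arrays and 8.80 ± 0.696 in MMTV-Cre arrays (SD, n = 4 each), a difference of 0.73 ± 0.36 (limma adjusted p = 0.399). Mcl1 1416880_PM_at averaged 8.10 ± 0.212 in p38a-lox PyMT arrays and 7.42 ± 0.56 in p38a-lox arrays, a difference of 0.67 ± 0.376 (limma adjusted p = 0.515). The probe sets disagree on direction in p38a-lox PyMT against p38a-lox, where 1416881_PM_at differed by -0.17 ± 0.157. Their deviations had r from 0.21 to 0.68 over the 16 arrays.

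Bak1 was the one pore-forming effector measured. Bak1 1425716_PM_s_at read 7.53, 7.37, 8.86 and 9.22 in p38a-lox arrays, against 8.97, 9.44, 8.04 and 8.79 in MMTV-Cre arrays, a difference of -0.57 ± 0.393 (limma adjusted p = 0.999). It was -1.76 in the lower title range and 0.62 in the higher one, so the p38a-lox arrays of the 2 ranges lay on opposite sides of their controls. With PyMT the same probe set read 7.92, 8.92, 8.54 and 8.80 in p38a-lox PyMT arrays, against 9.24, 8.79, 8.81 and 8.84 in PyMT arrays. Bak1 1418991_PM_at had group means from 5.29 to 5.59 and r = 0.23 of deviations with 1425716_PM_s_at over the 16 arrays. The suffix s marks probes that may match transcripts of more than 1 gene, so 1425716_PM_s_at is uncertain.

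Between members, at the brightest probe set of each gene, deviations from group means gave Pearson r from -0.66 to 0.66 over the 36 pairs of members and 16 arrays. The highest was between Bcl2l1 and Bbc3, and the lowest were between Bad and Bid and between Bak1 and Bcl2l11. Outside the family, the gene whose deviations were most like those of Bcl2 was Ssbp3 (r = 0.89, 16 arrays), followed by Tmem176b (r = 0.87). For Bcl2l1 they were Fbxl12 (r = 0.97) and Rarg (r = 0.95), for Bak1 Snrnp25 (r = 0.96) and Gpd1l (r = 0.96), and for Bad Naa38 (r = 0.96) and Mrps25 (r = 0.96). Mcl1 was most like Trim42 (r = 0.93) and Cideb (r = 0.87), and Bid most like Acvr1 (r = 0.91) and Il15 (r = 0.90). For Bcl2l11 the nearest were Trim39 (r = 0.89) and D930016D06Rik (r = 0.87), for Pmaip1 Rabgap1 (r = 0.88) and Med7 (r = 0.87), and for Bbc3 C1qbp (r = 0.90) and 2900024J01Rik (r = 0.90). These are the highest of all genes and so high by selection, and arrays of 1 title range share whatever sets them apart.

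Downstream of the pore, cytochrome c itself was called. Cycs, for the protein that assembles the caspase-9 platform once released, read 8.05, 8.72, 8.46 and 8.98 in p38a-lox PyMT arrays, against 6.95, 6.41, 7.17 and 7.48 in p38a-lox arrays, at probe set 1422484_PM_at. The groups did not overlap, and Cycs rose by 1.55 ± 0.257 (limma adjusted p = 0.0157). At 1422483_PM_a_at Cycs rose by 1.09 ± 0.192 (limma adjusted p = 0.0203). In PyMT against MMTV-Cre, Cycs 1422484_PM_at differed by 0.85 ± 0.257 and was not called (limma adjusted p = 0.132), and Cycs 1422483_PM_a_at differed by 0.22 ± 0.192 (limma adjusted p = 0.685). Without PyMT, the Cycs difference of p38a-lox against MMTV-Cre was not called, with -0.56 ± 0.257 at 1422484_PM_at and -0.65 ± 0.192 at 1422483_PM_a_at (limma adjusted p = 0.999 and 0.822), and the same p38a-lox arrays enter the called comparison. The Cycs interaction was 0.70 ± 0.364 and 0.87 ± 0.271 at these probe sets, each with a limma adjusted p of 0.996. Cycs is also a respiratory chain gene. The 2 called probe sets, both of Cycs, were among 29 tested probe sets of 17 caspase and apoptosome genes. The other 27 were not called in p38a-lox PyMT against p38a-lox, where 0.613% of all probe sets were called and 0.457% were called higher. The median of the 29 there was 0.16, against -0.02 for all probe sets.

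Further family members gave no call. Of 17 listed genes, 14 had a probe set, and 26 probe sets were tested with 0 called by limma in each of the 5 comparisons and 1 to 4 at an unadjusted p under 0.05. The count of 4 was in p38a-lox PyMT against p38a-lox, where 12.4% of all probe sets had such a p. Bcl2l15 1452614_PM_at differed by -2.67 ± 0.824 in p38a-lox PyMT against p38a-lox (unadjusted p = 0.00559, limma adjusted p = 0.17). The same p38a-lox arrays differed from MMTV-Cre by 2.13 ± 0.824 (limma adjusted p = 0.996), and the interaction was -2.50 ± 1.17 (limma adjusted p = 0.996). Bik 1420362_PM_a_at, a BH3-only gene, differed by 0.85 ± 0.284 in PyMT against MMTV-Cre (unadjusted p = 0.00907, limma adjusted p = 0.172).

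Genes that control the family were not called either. Of the regulators of BH3-only transcription and Mcl1 turnover, 35 probe sets of 18 genes were tested with 0 limma calls and 0 to 6 at an unadjusted p under 0.05 in each comparison, and their median in PyMT against MMTV-Cre was -0.07. The count of 6 was in p38a-lox PyMT against p38a-lox, where 12.4% of all probe sets had such a p. Foxo3, a transcription factor known to activate Bcl2l11, averaged 9.98 ± 0.85 in PyMT arrays and 10.49 ± 0.565 in MMTV-Cre arrays at 1450236_PM_at (SD, n = 4 each). The same groups averaged 9.55 ± 0.68 and 10.16 ± 0.21 at Foxo3 1434832_PM_at, but 9.97 ± 0.529 and 10.02 ± 0.232 at Foxo3 1434831_PM_a_at. The p53 pathway had 24 probe sets of 13 genes tested and the death receptor pathway 14 of 8 genes, each with 0 limma calls in all 5 comparisons, and with 1 to 9 and 0 to 3 at an unadjusted p under 0.05. The 3 were in PyMT against MMTV-Cre, where 13.7% of all probe sets had such a p. The 9 were in p38a-lox PyMT against p38a-lox, where 12.4% of all probe sets had such a p, and the smallest of them were for Sesn1 1433711_PM_s_at (-1.04 ± 0.252, unadjusted p = 0.00088, limma adjusted p = 0.0747) and Perp 1416271_PM_at (0.99 ± 0.247, unadjusted p = 0.00114, limma adjusted p = 0.086). Trp53inp1 1416927_PM_at, a p53 target, had the smallest p of the p53 list in PyMT against MMTV-Cre, with -2.44 ± 0.617 (unadjusted p = 0.00133, limma adjusted p = 0.0758).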

How the data were processed

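Total RNA of the luminal population, isolated by flow cytometry, was measured on 16 Affymetrix arrays. The deposited values are log2 signals that the authors made with RMA, per the submitters' processing notes, while the sources used here give neither version nor settings. RMA quantile-normalises, so differences in total RNA cannot be read. Of 45141 probe sets, 28898 carried 1 symbol in the platform annotation, and 28689 of these matched RefSeq (GRCm38.p6) by Entrez ID, which changed 0 symbols. The 22996 single-symbol probe sets with a mean at or above the 25th percentile (3.67) were fitted with limma 3.58.1 in R 4.3.3, with 1 coefficient per group over all 16 arrays (12 residual and 2.81 prior degrees of freedom). All 5 contrasts were tested two-sided. The fit was tested on simulated data. The number of arrays limits the precision.

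All member probe sets are reported. The rule for other genes takes, per list and comparison, up to 4 called genes or else the 2 of smallest p, and the text names some of these, with the 2 genes most like each member. The members and lists were chosen with earlier results of these data known. Replicate numbers follow accession order and pair nothing. Alternatives changed the filter, the unit tested, the variance model, the normalization, array weights, the arrays fitted and the title number range as a block, and left out arrays.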

Additional observations from a re-analysis of the deposited data

Results flagged for a closer look

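Bak1 1425716_PM_s_at read 9.24 in PyMT replicate 1, while the other PyMT arrays read 8.79 to 8.84. The gap was 0.906 of the range of the group, above the critical value of Dixon's test for 4 arrays. It was the single such value in 88 combinations of member probe set and group. Chance alone gives such a value in about 1 in 20 combinations, so 1 in 88 is not more than chance gives. The difference between p38a-lox effects with and without PyMT gave 0 limma calls among member probe sets, and 1 unadjusted p below 0.05.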

How the results depend on the processing

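Alternatives were run for the counts of calls and for the 33 member differences with an unadjusted p under 0.25, a limit widened from 0.05 after the results had been seen; differences with a larger p were not rerun one by one. The member count in PyMT against MMTV-Cre was 1 as reported, 0 with no filter, with 1 probe set per gene (the highest mean), with probe sets averaged per gene, with each array centred on its median, with only the arrays compared, with the title number range as a block and without the 2 arrays of lowest median correlation (PyMT replicate 4 and p38a-lox replicate 2), and 4 with arrayWeights. Leaving out 1 array gave 0 to 1. With arrayWeights those 4 were Bcl2l11 1426334_PM_a_at (-1.78), Bid 1417045_PM_at (1.52), Mcl1 1448503_PM_at (1.003) and Bcl2l1 1420888_PM_at (0.84). In p38a-lox PyMT against p38a-lox the member count was 2 with arrayWeights, Bcl2l11 1426334_PM_a_at (-1.56) and Bcl2 1457687_PM_at (-1.19), and 0 otherwise. The other 3 comparisons kept 0 called members under every alternative run. Over all probe sets, PyMT against MMTV-Cre gave 243 calls, with 1916 under arrayWeights, 69 with only the arrays compared and 70 to 619 with 1 array left out, lowest without PyMT replicate 1 and highest without PyMT replicate 2. The comparison of p38a-lox PyMT with p38a-lox gave 141, with 2167 under arrayWeights, 214 with only the arrays compared and 27 to 297 with 1 array left out, lowest without p38a-lox PyMT replicate 2 and highest without MMTV-Cre replicate 2. That of p38a-lox PyMT with PyMT gave 9 under arrayWeights and 0 to 2 with 1 array left out, p38a-lox against MMTV-Cre gave 9 under arrayWeights, 1 without the 2 arrays and 0 to 1 with 1 array left out, and the interaction gave 0 to 1. The differences of Bcl2l11 1426334_PM_a_at that missed the threshold in PyMT against MMTV-Cre included -1.68 with the title block (adjusted p = 0.0546), -1.75 when centred (0.0532), -1.58 without the 2 arrays (0.127) and -0.30 at the highest-mean probe set, which is another probe set (0.86); it passed with the filter at the median (0.035), trend and robust (0.0421) and a second quantile normalization (0.0397). Signs turned under arrayWeights for Bad 1416583_PM_at (0.031) and Bak1 1425716_PM_s_at (0.092) in p38a-lox against MMTV-Cre, and for Mcl1 in p38a-lox PyMT against p38a-lox at the highest-mean probe set (-0.17), again another probe set. The cause of these changes was not tested. No paired analysis was possible because the labels give no replicate numbers. The 4 arrays per group limit what can be detected, and dim probe sets lie near background.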

Other observations

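Immediate early genes, which cells switch on within minutes of a signal or of handling, rose in 5 of 16 tested probe sets of 12 genes in PyMT against MMTV-Cre, where 0.752% of all probe sets were called higher. They were Egr1, Nr4a1 (1.99 ± 0.387, limma adjusted p = 0.0273), Egr2 (1.85 ± 0.379, limma adjusted p = 0.0322), Dusp1 (1.33 ± 0.28, limma adjusted p = 0.0346) and Fosb (1.89 ± 0.413, limma adjusted p = 0.0405). In p38a-lox PyMT against p38a-lox, where 0.457% of all were called higher, Fosb was the single call of the 16, at 2.38 ± 0.413 (limma adjusted p = 0.0195). Egr1 1417065_PM_at rose by 2.59 ± 0.452 in PyMT against MMTV-Cre (limma adjusted p = 0.0155), with 10.94, 9.86, 11.25 and 11.13 in PyMT arrays, against 9.78, 7.75, 7.31 and 7.99 in MMTV-Cre arrays. In p38a-lox arrays Egr1 read 10.86, 10.50, 11.68 and 10.82, a difference of 2.75 ± 0.452 from MMTV-Cre that was not called (limma adjusted p = 0.25). Cd68, a macrophage marker, rose by 2.74 ± 0.561 in p38a-lox PyMT against p38a-lox (limma adjusted p = 0.0404), while Ptprc lay below the filter. Cd68 was the 1 call among 5 tested leukocyte probe sets. Their median difference there was 0.06, against -0.02 for all probe sets, so the rise is that of 1 marker. Of 16 tested probe sets of 11 cell cycle genes, 0 were called in any comparison by limma, 0 to 2 had an unadjusted p under 0.05, and the smallest unadjusted p in PyMT against MMTV-Cre was 0.00932, for Rrm2. The count of 2 was reached in p38a-lox PyMT against p38a-lox, where 12.4% of all probe sets had such a p.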
